A study of Mus musculus with 12 samples.

Results

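The chaperones of the cytosol, nucleus and mitochondria were taken as 40 named genes: the HSP90, HSP70, HSP110, HSP60, HSP10 and small heat shock proteins, J-domain proteins, co-chaperones that act outside the endoplasmic reticulum (ER), and 2 heat shock factors. They were chosen by name, with earlier results of these data known, and matched by symbol among the 54752 genes counted. All 40 passed the filter on low counts in every comparison, the lowest count in any library being 84, for Hspb1. Poly(A) RNA was sequenced from the cerebellar cortex, cut free of the nuclei below it, of 12 male wild-type F1 hybrid C57BL6J/FVB mice at 12 weeks. 4 mice had been fed ad libitum (AL), 4 were on dietary restriction (DR) and 4 on a ketogenic diet (KD), whose composition is not given in the sources used here. AL and DR mice were dissected within a window of hours early in the dark period. The DR mice had not received their last meal, so restriction and the hours since feeding cannot be told apart, and the AL and DR libraries were selected for RNA quality. Each library is 1 mouse, and mice are numbered within a diet in the order of the series, so that a number pairs no mice across diets.

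HSP70 proteins bind exposed hydrophobic stretches of unfolded proteins in a cycle driven by ATP: J-domain proteins deliver the client and start ATP hydrolysis, and exchange factors such as HSP110 and BAG proteins release it. HSP90 takes over near-native clients, kinases and steroid receptors among them, with the help of co-chaperones, whereas HSP60 with its lid HSP10 folds proteins inside mitochondria and small HSPs hold aggregating proteins without ATP. Heat shock factor 1 (HSF1) binds inverted repeats of the unit GAA in promoters of many of these genes and raises their transcription when unfolded proteins accumulate.

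On DR, 13 of the 40 chaperone genes were lower than on AL, none was higher, and the HSP70 genes Hspa1a and Hspa1b fell the most, with log2 fold changes of -1.15 and -1.13. The other 11 were Hsph1, Cryab, Hsp90ab1, Ahsa2, Hsp90aa1, Bag3, Stip1, Chordc1, Hspa8, Dnaja1 and Fkbp4, with log2 fold changes from -0.60 to -0.26. These calls rest on the quasi-likelihood test of edgeR at a p under 0.05 after adjustment by the method of Benjamini and Hochberg over the 19052 genes tested, which called 3.06% of all genes in either direction and 1.74% as lower on DR. The log2 fold change was negative for 34 of the 40 chaperone genes, against 49% of all genes, and the median was -0.18, against 0.00 over all genes. At an unadjusted p under 0.05, 23 members passed, all lower, against 18% of all genes in either direction. The values of all 4 DR mice lay below those of all 4 AL mice for 8 members, against 5.64% of all genes, and above them for 0, against 5.3%. In bulk tissue, fewer cells of a type and less RNA per cell cannot be told apart.

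On KD, no chaperone gene was called against AL, and neither was any of the 19036 genes tested (0%). At an unadjusted p under 0.05 edgeR's test passed 928 genes (4.87%), 1 of them a member, Hspa1a, and the Wald test of DESeq2 and the exact test of edgeR called 10 and 18 genes, again with no member. With no filter on low counts edgeR's test called Hspa1a and Hspa1b, and without AL mouse 3 it called Hspa1a (adjusted p = 0.0443), all lower on KD. Without AL mouse 3, 0.0103% of all genes were called. The share with no filter is not given here, so the calls in that setting are not shown to be particular to the members. The median log2 fold change of the members was -0.01, and 23 of the 40 were negative, against 49.9% of all genes. For no member did the 4 KD mice lie wholly below or wholly above the 4 AL mice, as they did for 1.55% and 1.41% of all genes (2.96% together). The members' 95% confidence intervals reached down to -0.73, for Hspa1b, and up to 0.48, for Hspb1, so a missed threshold does not show that the diets gave equal levels.

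DR against KD gave 17 lower members and no higher one, against 4.94% of all 19087 genes called, 2.43% as lower and 2.51% as higher. All 13 genes called against AL were among them, and Hspb1, Hspd1, Hspe1 and Ptges3 joined them. The DR mice lay below all KD mice for 20 members, against 6.03% of all genes, and above them for 0, against 5.79%. At an unadjusted p under 0.05, 27 members passed, all lower, against 18.7% of all genes. The median log2 fold change was -0.16, against 0.00 over all genes. This comparison and that with AL share the DR mice, and those of DR and KD against AL share the AL mice, so none is independent of the others, and 23 of the 40 genes were called in no comparison.

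**Figure D1:**
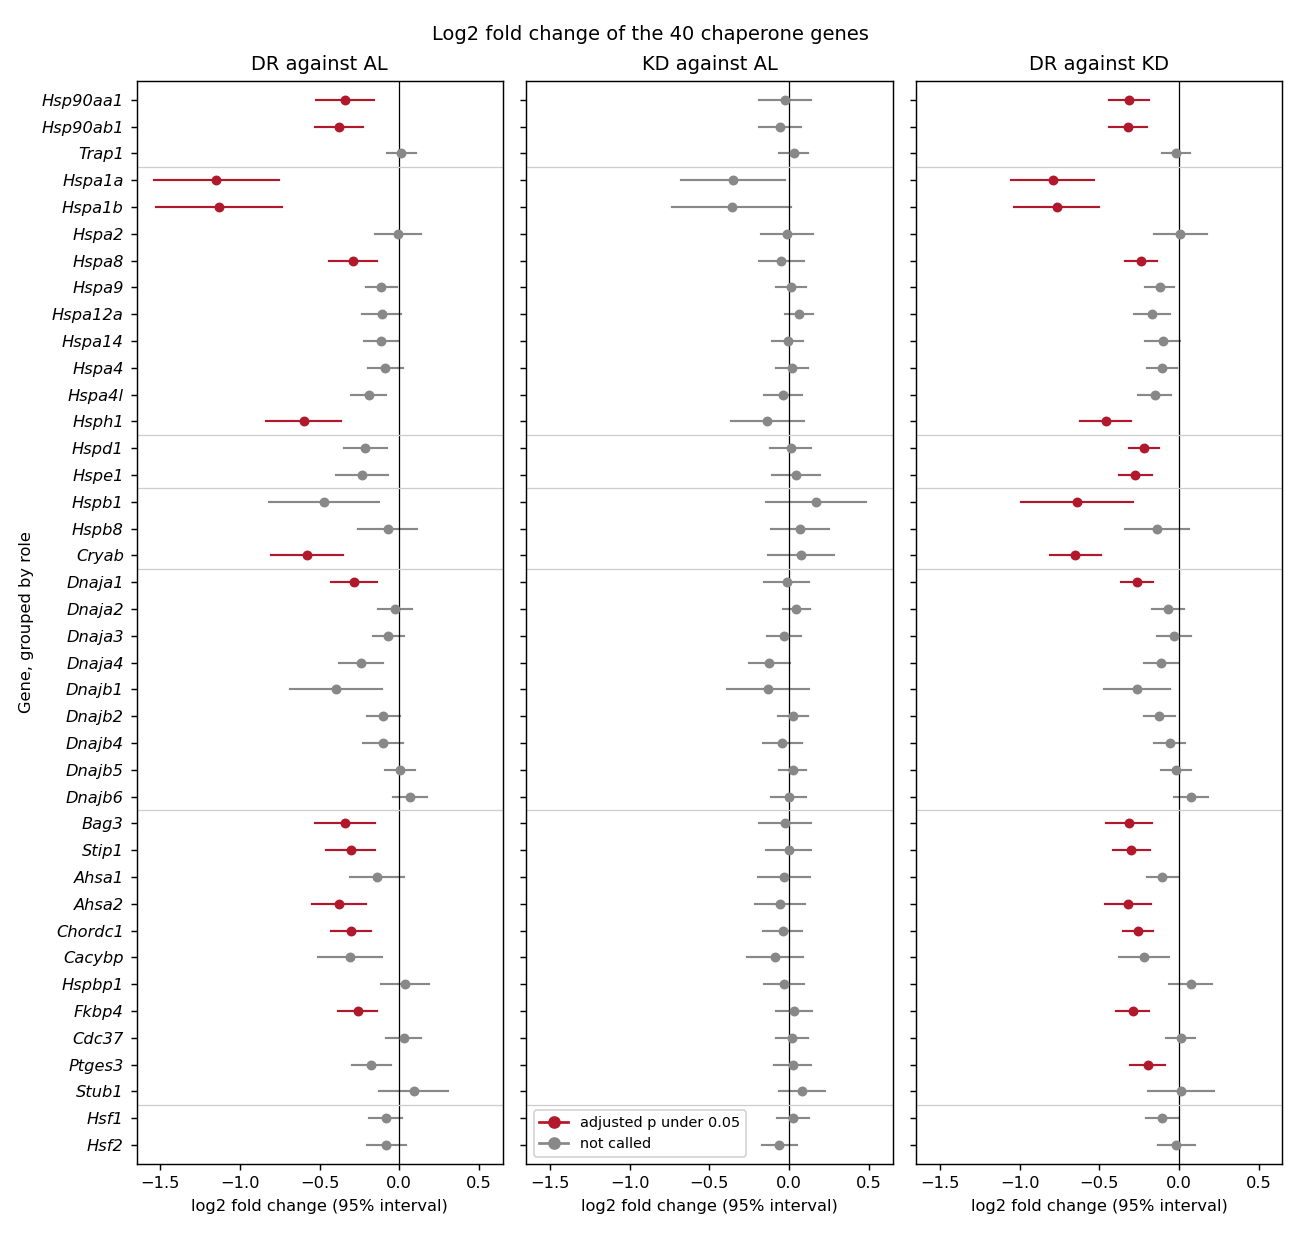
Log2 fold change of each of the 40 chaperone genes with its 95% confidence interval, in the 3 comparisons between diets, with grey lines between roles (top to bottom: HSP90, HSP70 and HSP110, HSP60 and HSP10, small HSPs, J-domain proteins, co-chaperones, heat shock factors). Red points passed an adjusted p under 0.05: 13 for DR against AL, 0 for KD against AL and 17 for DR against KD, all left of 0.

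Heat shock element letters were searched for in RefSeq promoters of GRCm38.p6, 300 bases each with 250 before and 50 after a gene's start, of which 34 of the 40 genes had at least 1. Cryab, Hsf1, Hsp90aa1, Hsp90ab1, Hspa8 and Hspa9 had none in the table used here, so the 3 most abundant members and 4 of the 17 genes called in a comparison do not enter the shares. Pairs of inverted units, GAANNTTC or TTCNNGAA, were found on either strand in 15.1% of 32851 promoters of this length, and runs of 3 units, GAANNTTCNNGAA or TTCNNGAANNTTC, each of which contains pairs, in 0.603%. Counted per gene, over any of its promoters, pairs were present in 17% of 27025 genes and in 16 of the 34 chaperone genes (47.1%), and runs of 3 units in 0.662% and in 5 (14.7%). The following stretches, from RefSeq, are shown because they belong to the 10 genes with a pair that were called in a comparison, or, for Dnajb6, to the one gene with a run of 3 units that was not. They run 5′ to 3′ on the strand of the gene with the units in capitals.
Hspa1a, chr17:34972242-34972271, minus strand: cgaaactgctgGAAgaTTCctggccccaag
Hspa1b, chr17:34959324-34959353, minus strand: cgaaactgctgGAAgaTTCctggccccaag
Hsph1, chr5:149636280-149636308, minus strand: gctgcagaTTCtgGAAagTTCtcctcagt
Hspb1, chr5:135887801-135887830, plus strand: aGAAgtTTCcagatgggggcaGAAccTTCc
Hspe1, chr1:55088053-55088082, plus strand: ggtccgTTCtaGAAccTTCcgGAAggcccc
Hspd1, chr1:55088053-55088082, minus strand: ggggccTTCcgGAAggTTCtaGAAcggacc
Chordc1, chr9:18292260-18292288, plus strand: ccgGAAcgTTCggGAAaaTTCctGAAgca
Dnaja1, chr4:40722333-40722362, plus strand: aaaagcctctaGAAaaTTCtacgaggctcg
Fkbp4, chr6:128438789-128438818, minus strand: ccgcttctctaGAAagTTCtccgctcccgc
Bag3, chr7:128523614-128523632, plus strand: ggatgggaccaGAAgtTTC
Dnajb6, chr5:29735844-29735872, plus strand: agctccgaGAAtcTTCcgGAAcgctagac
The stretch of Hspa1a and that of Hspa1b are the same letters, 104 bases before each gene's start and outside any annotated gene, and 296 of the 300 promoter bases of this pair of genes are identical (98.7%). Hspd1 and Hspe1 lie head to head, so the stretch printed for one is the reverse complement of that printed for the other: 1 run of 4 units serves both counts, 89 bases before the start of Hspe1 and 144 before that of Hspd1, within a 5′ untranslated exon of a longer Hspd1 transcript of GENCODE. The 5 units of Chordc1 begin 4 bases before its RefSeq start, within an untranslated exon of Chordc1 in GENCODE. The pair of Bag3 lies 42 bases after its RefSeq start, in an untranslated region of Bag3 in GENCODE. The run of Hsph1 lies after the start, in the 5′ untranslated region of Hsph1, that of Dnajb6 in its 5′ untranslated region in GENCODE, and the 2 pairs of Hspb1 outside any gene.

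Among the 13 genes with a promoter in the table that were called in a comparison, 10 held a pair (76.9%) and 4 a run of 3 units (30.8%), and among the 21 called in none, 6 held a pair (28.6%) and 1, Dnajb6, a run (4.76%). The called genes without a pair were Ahsa2, Stip1 and Ptges3. Hspa1a and Hspa1b, with nearly the same promoter, and Hspd1 and Hspe1, with the same stretch, each count as 2 genes here. Against AL, 2 of the 18 genes without a pair, 5 of the 11 with a pair but no run and 2 of the 5 with a run were called. Against KD these were 3, 6 and 4. The median log2 fold change of DR against AL was -0.10 for the 18 genes without a pair, -0.26 for the 11 with a pair but no run and -0.23 for the 5 with a run. For DR against KD these medians were -0.11, -0.26 and -0.26, and for KD against AL -0.01, -0.02 and 0.00. Letters in a window are a description: neither binding of HSF1 nor its activity was measured, and genes without these letters may carry others.

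**Figure D2:**
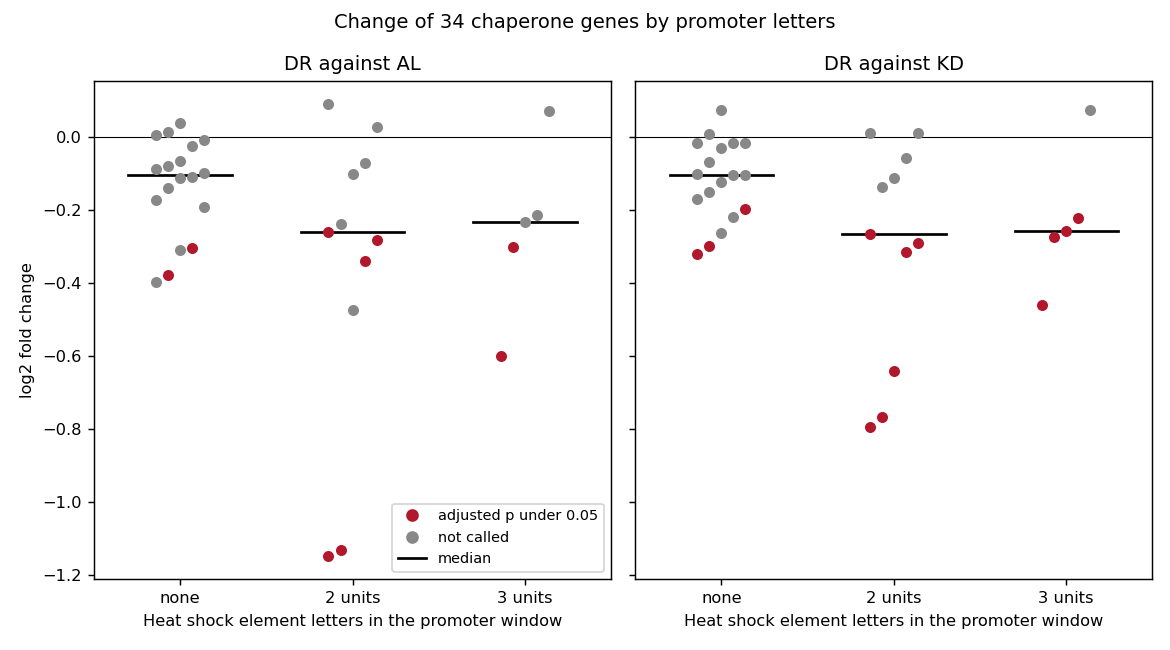
Log2 fold change of the 34 chaperone genes with a RefSeq promoter, by heat shock element letters in the promoter window (none, a pair of units, a run of 3 units), for DR against AL (left) and DR against KD (right). Each point is a gene, red where called, and bars are medians, at -0.10, -0.26 and -0.23 on the left and at -0.11, -0.26 and -0.26 on the right.

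Levels are given as CPM, counts scaled to the TMM-adjusted library size, within a gene, and as RPKM, CPM divided by exon length in kilobases, between genes. Levels in RPKM ran from 3.26 to 492 as a mean over the 12 mice. The constitutive HSP90 Hsp90ab1 (492 RPKM) and the constitutive HSP70 Hspa8 (486 RPKM) were close to each other, and the inducible HSP90 Hsp90aa1 followed at 303 RPKM. These 3 genes held 57.4% of the summed CPM of the 40 members. Next came the co-chaperones Stip1 (110.2 RPKM) and Fkbp4 (72.6 RPKM), the mitochondrial Hspd1 (62.3 RPKM) and Hspa9 (53.7 RPKM), and the J-domain protein Dnaja2 (51.6 RPKM). The inducible HSP70 genes were low, Hspa1b at 11.8 and Hspa1a at 5.96 RPKM, and the lowest were Hspb1 at 3.58 and Hsf2 at 3.26 RPKM. Summed over the 40 genes, the level was 9379, 8805, 7647 and 9629 CPM in AL mice 1 to 4, 7297, 7148, 7129 and 7779 in the DR mice and 8460.3, 8312, 9208 and 8659 in the KD mice. AL mouse 3 was the one AL mouse within reach of the DR mice, with DR mouse 4 above it, and all KD mice lay above all DR mice. As a share of the TMM-scaled counts assigned to genes the members took from 0.713% to 0.963%.

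**Figure D3:**
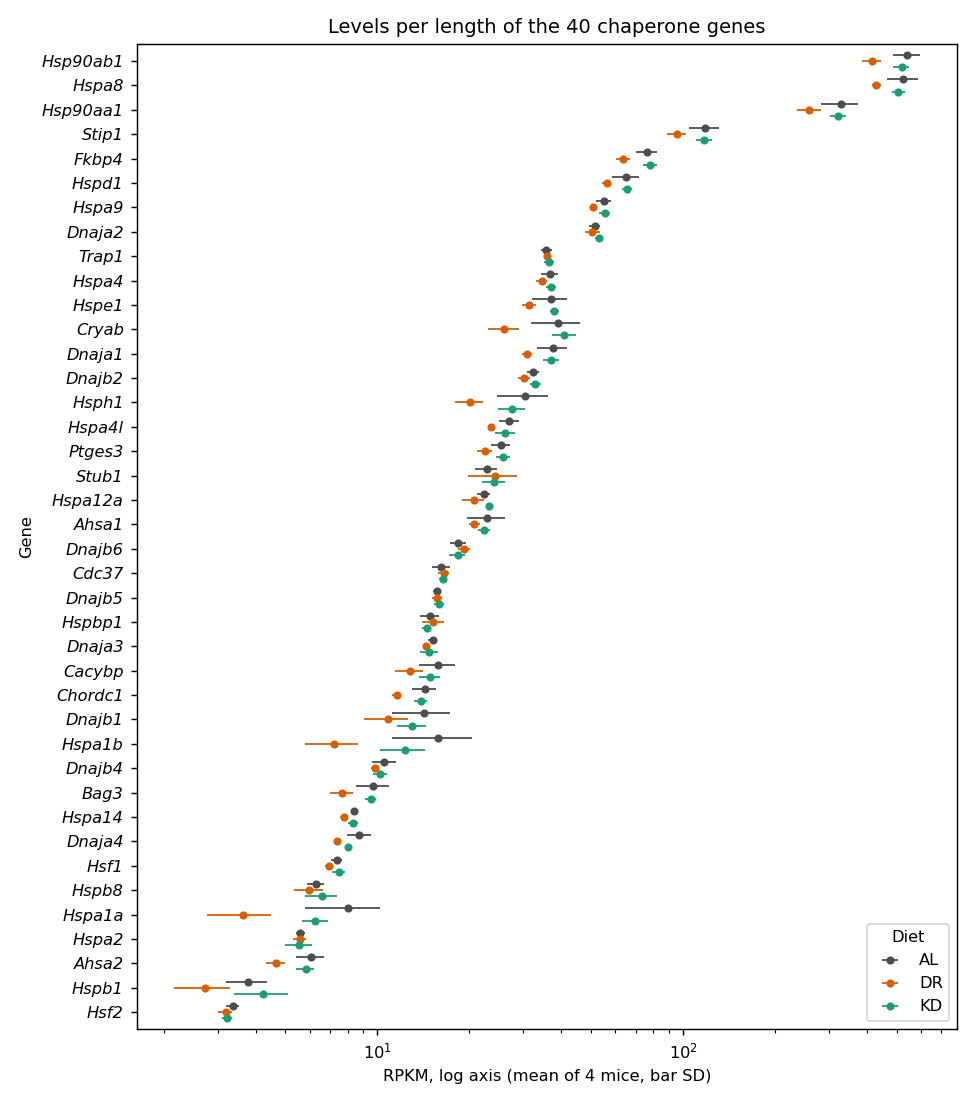
RPKM of each of the 40 chaperone genes on the 3 diets (log axis), ordered by the mean over 12 mice, with points for the mean of 4 mice and bars for the SD. Hsp90ab1, Hspa8 and Hsp90aa1 lie apart from the rest, from 259 to 541 RPKM, and Hspa1a and Hspb1 are among the lowest, with DR points to the left of the others.

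Of the HSP90 genes, both cytosolic ones were called and the mitochondrial one was not. Hsp90ab1, the constitutive cytosolic HSP90, was at 1724, 1581, 1402 and 1777 CPM in AL mice 1 to 4, 1206, 1164, 1244 and 1370.0 in the DR mice and 1495, 1501, 1691 and 1534 in the KD mice. No DR mouse reached the lowest AL or KD mouse. Its log2 fold change in edgeR's test was -0.38 (standard error 0.07, adjusted p = 0.0111) against AL and -0.32 (standard error 0.06, adjusted p = 0.00341) against KD. The stress-inducible Hsp90aa1 was at 1337, 1205, 1102 and 1524 CPM in AL mice 1 to 4, 1009, 947, 971 and 1147 in the DR mice and 1247, 1173, 1344 and 1304 in the KD mice. DR mouse 4 was above AL mouse 3 but below all KD mice. Its log2 fold changes on DR in edgeR's test were -0.34 (standard error 0.09, adjusted p = 0.0427) against AL and -0.31 (standard error 0.06, adjusted p = 0.00626) against KD, and 28.5% of its 150-base windows are shared letter for letter with transcripts of other genes. Trap1, the HSP90 of mitochondria, was at 92.6 ± 1.19 CPM (SD, n = 4) on DR and 91.9 ± 3.88 CPM on AL, a log2 fold change of 0.01 with a 95% interval of -0.08 to 0.10, which reached -0.0056 with 1 mouse left out.

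In the HSP70 and HSP110 group, 4 of 10 genes were called, in both comparisons of DR. Hspa1a, an inducible cytosolic HSP70, was at 27.3, 28.4, 14.3 and 24.9 CPM in AL mice 1 to 4, 8.91, 14.4, 9.12 and 10.7 in the DR mice and 19.4, 16.3, 20.5 and 18.1 in the KD mice. DR mouse 2 was slightly above AL mouse 3 and all other DR mice were below every AL and KD mouse. Hspa1b, its neighbour on chromosome 17, was at 48.4, 52.5, 25 and 51.0 CPM in AL mice 1 to 4, 17.3, 25.5, 17.1 and 21.1 in the DR mice and 37.5, 25.9, 38.4 and 35.7 in the KD mice. Again DR mouse 2 reached AL mouse 3, and it lay just below KD mouse 2. The log2 fold changes of DR against KD in edgeR's test were -0.79 (standard error 0.12, adjusted p = 0.00139) for Hspa1a and -0.77 (standard error 0.13, adjusted p = 0.00217) for Hspa1b. The KD means of both lay between those of the other diets, and against AL edgeR's test gave -0.35 (standard error 0.15, adjusted p = 0.994) and -0.36 (standard error 0.17, adjusted p = 0.994). Of the 150-base windows of these genes, 46.0% and 40.5% are shared, mostly with each other, so the division of reads between them is uncertain. Hspa1a also has 19.0% of its exonic bases in common with Gm20481 on the opposite strand, which an unstranded kit cannot separate. Summed to 1 gene, they gave -1.14 in edgeR's test on the log2 scale (standard error 0.18, adjusted p = 0.00452) for DR against AL and -0.78 (standard error 0.12, adjusted p = 0.00129) for DR against KD.

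Hspa8, the constitutive HSP70 and the most abundant transcript of the set by CPM, was at 2452, 2300.3, 1873 and 2398 CPM in AL mice 1 to 4, 1862, 1793, 1795 and 1926 in the DR mice and 2113, 2125, 2337 and 2132 in the KD mice. AL mouse 3 lay within the DR range, and no DR mouse reached the KD mice. In edgeR's test its log2 fold changes on DR were -0.29 (standard error 0.07, adjusted p = 0.0391) against AL and -0.24 (standard error 0.05, adjusted p = 0.00731) against KD. Of its 150-base windows, 23.0% are shared with transcripts of other genes. Hsph1, an HSP110 that exchanges nucleotide on HSP70, was at 244, 228, 160.1 and 251 CPM in AL mice 1 to 4, 143, 157, 126 and 158 in the DR mice and 201, 175, 225 and 202 in the KD mice. All DR mice were below all others, DR mouse 4 only just below AL mouse 3. Against KD edgeR's test gave -0.46 (standard error 0.08, adjusted p = 0.00216). The other HSP110 genes were not called: Hspa4 had a log2 fold change of -0.09 (95% interval -0.20 to 0.02) and Hspa4l of -0.19 (-0.30 to -0.08) against AL, at 0.407 and 0.0554 for the adjusted p of edgeR's test. Hspa4l was nonetheless lower in all 4 DR mice, at 275 to 281 CPM, than in all AL mice, at 292 to 344 CPM. The remaining HSP70 genes, Hspa9 of mitochondria, Hspa14, Hspa12a and Hspa2, were not called, with log2 fold changes against AL from -0.11 to -0.01. Hspa2, known from the testis, gave 14.7 ± 0.767 CPM on DR and 14.8 ± 0.50 CPM on AL (SD, n = 4 each), an interval of -0.15 to 0.14 around the difference.

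The mitochondrial chaperonin was called against KD and not against AL. Hspd1, which encodes HSP60, was at 179, 179, 147 and 185 CPM in AL mice 1 to 4, 155, 148, 142 and 149.98 in the DR mice and 175, 166, 181 and 171 in the KD mice. AL mouse 3 stood apart from the other AL mice and within the DR range. In edgeR's test the log2 fold change on DR was -0.21 (standard error 0.06, adjusted p = 0.0835) against AL and -0.22 (standard error 0.04, adjusted p = 0.00802) against KD. Another transcript shares 16.1% of the 150-base windows of Hspd1. Hspe1, the lid HSP10, was at 56.1, 52.4, 46.1 and 62.9 CPM in AL mice 1 to 4, 47.8, 45.4, 42.9 and 48.6 in the DR mice and 58.3, 54.0, 55.1 and 56.3 in the KD mice. 2 DR mice were above AL mouse 3, none reached the KD mice, and the log2 fold changes were -0.23 (standard error 0.08, adjusted p = 0.122) against AL and -0.27 (standard error 0.05, adjusted p = 0.00424) against KD in edgeR's test. Without AL mouse 3, the lowest AL mouse for both, both were called against AL, at adjusted p of 0.00346 for Hspd1 and 0.019 for Hspe1 in edgeR's test. That fit called 3.68% of all genes. It was the only 1 of 8 fits with 1 mouse left out that called either gene. Across these fits the adjusted p of edgeR's test reached 0.226 for Hspd1 and 0.302 for Hspe1.

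2 of the 3 small HSPs fell on DR against KD. Cryab (αB-crystallin), a small HSP abundant in glia and muscle, was at 60.1, 49.6, 49.3 and 71.1 CPM in AL mice 1 to 4, 39.5, 33.2, 37.2 and 43.7 in the DR mice and 61.4, 56.1, 67.9 and 56.4 in the KD mice. No DR mouse reached any AL or KD mouse. Its log2 fold changes in edgeR's test were -0.58 (standard error 0.11, adjusted p = 0.01) against AL and -0.65 (standard error 0.08, adjusted p = 0.000197) against KD, the latter the smallest adjusted p of any member in that comparison. 17% of its exonic bases overlap Hspb2, and its level may include reads of that gene. Hspb1 (HSP25), which holds unfolded proteins, was at 4.17, 3.51, 3.30 and 4.60 CPM in AL mice 1 to 4, 2.15, 3.40, 2.5 and 3.19 in the DR mice and 3.69, 4.37, 5.61 and 3.81 in the KD mice. DR mouse 2 was above AL mouse 3 and below the KD mice. edgeR's test gave -0.47 (standard error 0.16, adjusted p = 0.136) against AL and -0.64 (standard error 0.17, adjusted p = 0.0351) against KD, at counts as low as 84 and with 39.1% of its windows shared with other transcripts. Hspb8, the partner of BAG3 in selective autophagy, was not called, at 11.7 ± 1.26 CPM on DR and 12.3 ± 0.779 CPM on AL (SD, n = 4 each).

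Of the 9 J-domain proteins 1 was called, in both comparisons of DR. Dnaja1, the type A partner of Hspa8, was at 343, 324, 273 and 352 CPM in AL mice 1 to 4, 261, 270.1, 254 and 277 in the DR mice and 310.3, 301, 346 and 319 in the KD mice. AL mouse 3 lay within the DR range and the KD mice above it. In edgeR's test the log2 fold changes were -0.28 (standard error 0.07, adjusted p = 0.0342) against AL and -0.26 (standard error 0.05, adjusted p = 0.00479) against KD. Transcripts of other genes share 13.4% of the 150-base windows of Dnaja1. Dnajb1, the stress-inducible HSP40, had a larger log2 fold change with a larger spread, -0.40 against AL (95% interval -0.69 to -0.11, adjusted p = 0.136 in edgeR's test), with 31.9 CPM in AL mouse 3 and 45.3 to 54.4 CPM in the other AL mice. Dnaja4 had -0.24 (95% interval -0.38 to -0.10, adjusted p = 0.0615 in edgeR's test), but 44.1% of its exonic bases overlap Wdr61 on the opposite strand. Dnaja2, Dnaja3, Dnajb2, Dnajb4, Dnajb5 and Dnajb6 lay between -0.10 and 0.07 against AL. Dnajb6, a suppressor of polyglutamine aggregation, was at 116.6 ± 5.26 CPM on DR and 111.1 ± 6.58 CPM on AL (SD, n = 4 each).

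Co-chaperones held the largest number of calls, 5 of 11 against AL and 6 of 11 against KD. Apart from Bag3 the called ones are partners of HSP90 or relatives of such a partner, but this does not set them apart. Cdc37 and Ahsa1, which also act on HSP90, were not called. Fkbp5 and Ttc4, HSP90 partners outside this group, were called higher on DR in both comparisons. Stip1 (HOP), which bridges HSP70 and HSP90, was at 271, 252, 218 and 283 CPM in AL mice 1 to 4, 202, 192, 208 and 227 in the DR mice and 244, 247, 277 and 254 in the KD mice. DR mouse 4 was above AL mouse 3 and below all KD mice. The log2 fold changes in edgeR's test were -0.30 (standard error 0.07, adjusted p = 0.0347) against AL and -0.30 (standard error 0.05, adjusted p = 0.00482) against KD. Chordc1 (CHP1), an HSP90 co-chaperone, was at 107, 108, 94.2 and 118 CPM in AL mice 1 to 4, 89.9, 83.6, 85.4 and 87.8 in the DR mice and 100.4, 103, 111 and 101 in the KD mice. The 4 DR mice lay close together and below all others, and edgeR's test gave -0.30 (standard error 0.06, adjusted p = 0.0137) against AL and -0.26 (standard error 0.04, adjusted p = 0.00341) against KD. Fkbp4 (FKBP52), a prolyl isomerase in steroid receptor complexes, was at 219, 211, 191 and 232 CPM in AL mice 1 to 4, 176, 171, 173 and 192 in the DR mice and 210.4, 211, 234 and 216 in the KD mice. DR mouse 4 was just above AL mouse 3, and the changes in edgeR's test were -0.26 (standard error 0.06, adjusted p = 0.0263) against AL and -0.29 (standard error 0.05, adjusted p = 0.0026) against KD.

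Ahsa2, a relative of the HSP90 ATPase activator Ahsa1, was at 29.4, 28.9, 23.2 and 28.2 CPM in AL mice 1 to 4, 20.6, 22.4, 19.2 and 22.3 in the DR mice and 25.8, 24.2, 28.3 and 27.1 in the KD mice. The DR mice were below all others, with -0.38 (standard error 0.08, adjusted p = 0.0201) against AL and -0.32 (standard error 0.07, adjusted p = 0.012) against KD in edgeR's test, but 50.2% of its exonic bases overlap other genes, chiefly Usp34 on the opposite strand, so the value is uncertain. Bag3, the exchange factor that directs HSP70 clients to autophagy, was at 25.7, 25.3, 20.6 and 27.7 CPM in AL mice 1 to 4, 17.5, 19.9, 19.5 and 21.6 in the DR mice and 23.7, 23.9, 24.2 and 25.9 in the KD mice. DR mouse 4 was above AL mouse 3 and below all KD mice, and edgeR's test gave -0.34 (standard error 0.09, adjusted p = 0.0494) against AL and -0.31 (standard error 0.07, adjusted p = 0.0133) against KD. Ptges3 (p23), which stabilises closed HSP90, was at 56.3, 57.1, 50.8 and 60.6 CPM in AL mice 1 to 4, 52.2, 51.9, 46.6 and 48.5 in the DR mice and 55.7, 53.6, 60.3 and 58.6 in the KD mice. Mice 1 and 2 on DR were above AL mouse 3, and the changes in edgeR's test were -0.17 (standard error 0.06, adjusted p = 0.125) against AL and -0.20 (standard error 0.05, adjusted p = 0.0393) against KD. Another transcript shares 14.9% of the 150-base windows of Ptges3. Cdc37, the kinase adaptor of HSP90, Hspbp1, an HSP70 exchange factor, and the ubiquitin ligase Stub1 (CHIP) had log2 fold changes of 0.03, 0.04 and 0.09 against AL, with intervals that include 0 and a sign that turned with 1 mouse left out, to -0.015, -0.012 and -0.027 at the lowest. Ahsa1 was at -0.14 (95% interval -0.31 to 0.03) and Cacybp at -0.31 (-0.51 to -0.11), neither called.

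**Figure D4:**
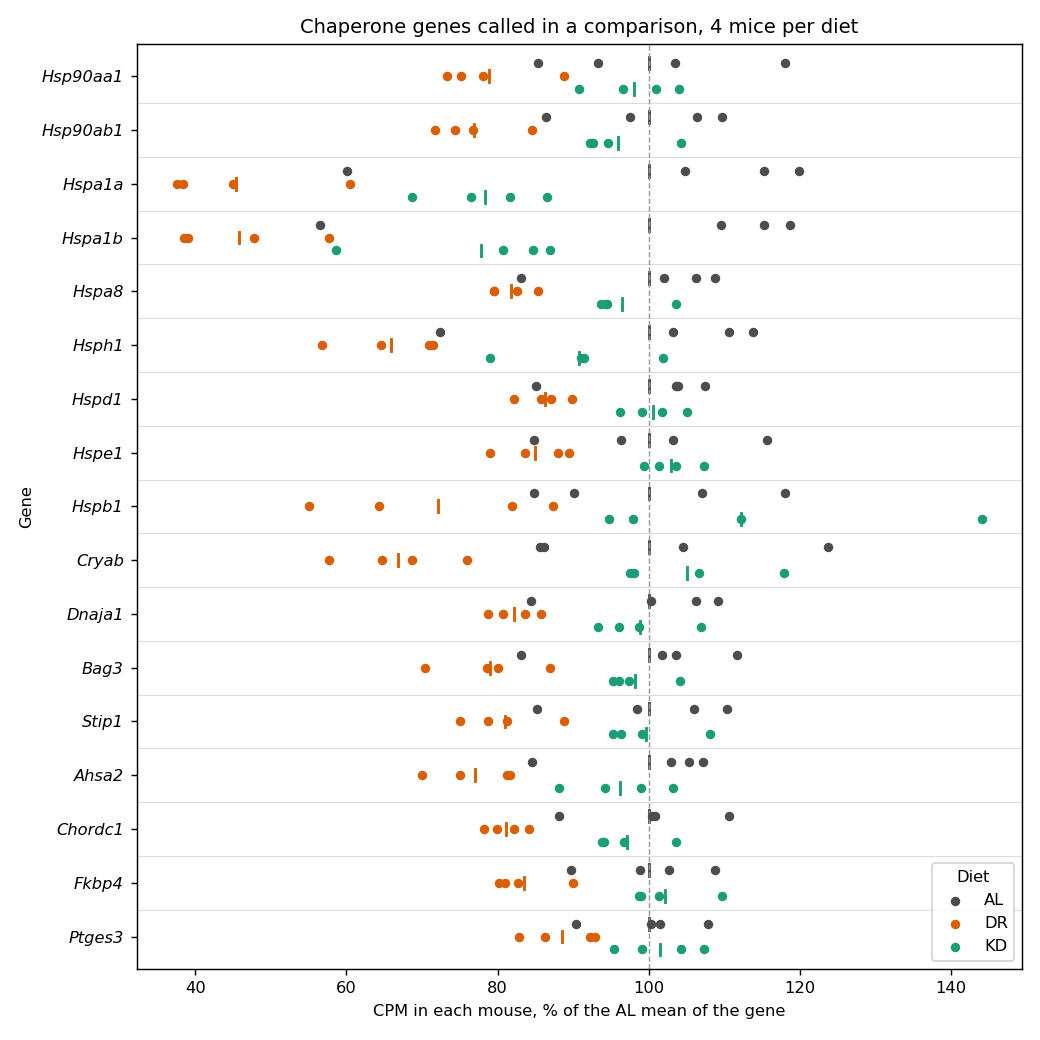
CPM of the 17 chaperone genes called in a comparison in each of the 12 mice, as a percentage of the gene's AL mean (dashed line at 100), with coloured ticks for the mean of each diet. DR points lie to the left of the KD points for every gene, and the lowest AL point of each gene, that of AL mouse 3, reaches the DR range in many of them.

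Transcripts of the heat shock factors themselves were not called. Hsf1 was at 53.1, 54.9, 50.1 and 50.6 CPM in AL mice 1 to 4, 47.5, 51.2, 49.0 and 49.2 in the DR mice and 49.6, 55.5, 52.9 and 54.3 in the KD mice. DR values overlapped those of AL and KD, with log2 fold changes in edgeR's test of -0.09 (standard error 0.05, adjusted p = 0.378) against AL and -0.11 (standard error 0.05, adjusted p = 0.225) against KD. Hsf2 was at 30.2, 33.8, 32.9 and 32.6 CPM in AL mice 1 to 4, 32.5, 30.9, 30.5 and 28.5 in the DR mice and 29.5, 31.7, 31.8 and 30.8 in the KD mice. All diets overlapped, with -0.08 (standard error 0.06, adjusted p = 0.503) against AL in edgeR's test. HSF1 is controlled largely after translation, and its protein was not measured.

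Mice within a diet differed together. AL mouse 3 had the lowest value of the AL mice in 32 of the 40 genes and in all 17 that were called in a comparison, against 29.4% of all genes. AL mouse 4 had the highest in 13 of the 17, against 26.4% of all genes. KD mouse 3 was the highest KD mouse in 15 of the 17, against 28.1% of all genes, and DR mouse 4 the highest DR mouse in 10, against 22.2%. Hspa1a in AL mouse 3, at 14.3 CPM, was at about the level of DR mouse 2, and Hspa1b in the same mouse, at 25 CPM, likewise. AL mouse 3 had 35021240 counts, within the 31712084 to 40798644 of the 12 libraries. Its summed Purkinje markers, at 8485 CPM, were below the 8623 to 9080 CPM of the other AL mice, and its granule markers, at 5912 CPM, were above the 5436 to 5472 CPM of the others. The parts of cell makeup and of the time of dissection in this spread were not tested. According to the paper that time varied among the AL and among the DR mice. Without this mouse 21 members were called for DR against AL, all lower and among them all 13, where 3.68% of all genes were called, with log2 fold changes of -1.33 for Hspa1a and -1.33 for Hspa1b, and 1 member for KD against AL, Hspa1a at -0.53 (adjusted p = 0.0443 in edgeR's test), where 0.0103% of all genes were called. Leaving out AL mouse 1, 2 or 4 or DR mouse 1 or 3 left 6 calls against AL: Hspa1a, Hspa1b, Hsph1, Cryab, Hsp90ab1 and Chordc1 passed in each of the 8 fits with 1 mouse left out. Against KD, where AL mouse 3 plays no part, 15 of the 17 passed in each of 8 such fits, all but Hspb1 and Ptges3. Except without AL mouse 3, the share of all genes called in these fits is not given here. Whether calls were lost in the members more than in other genes is therefore not shown.

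**Figure D5:**
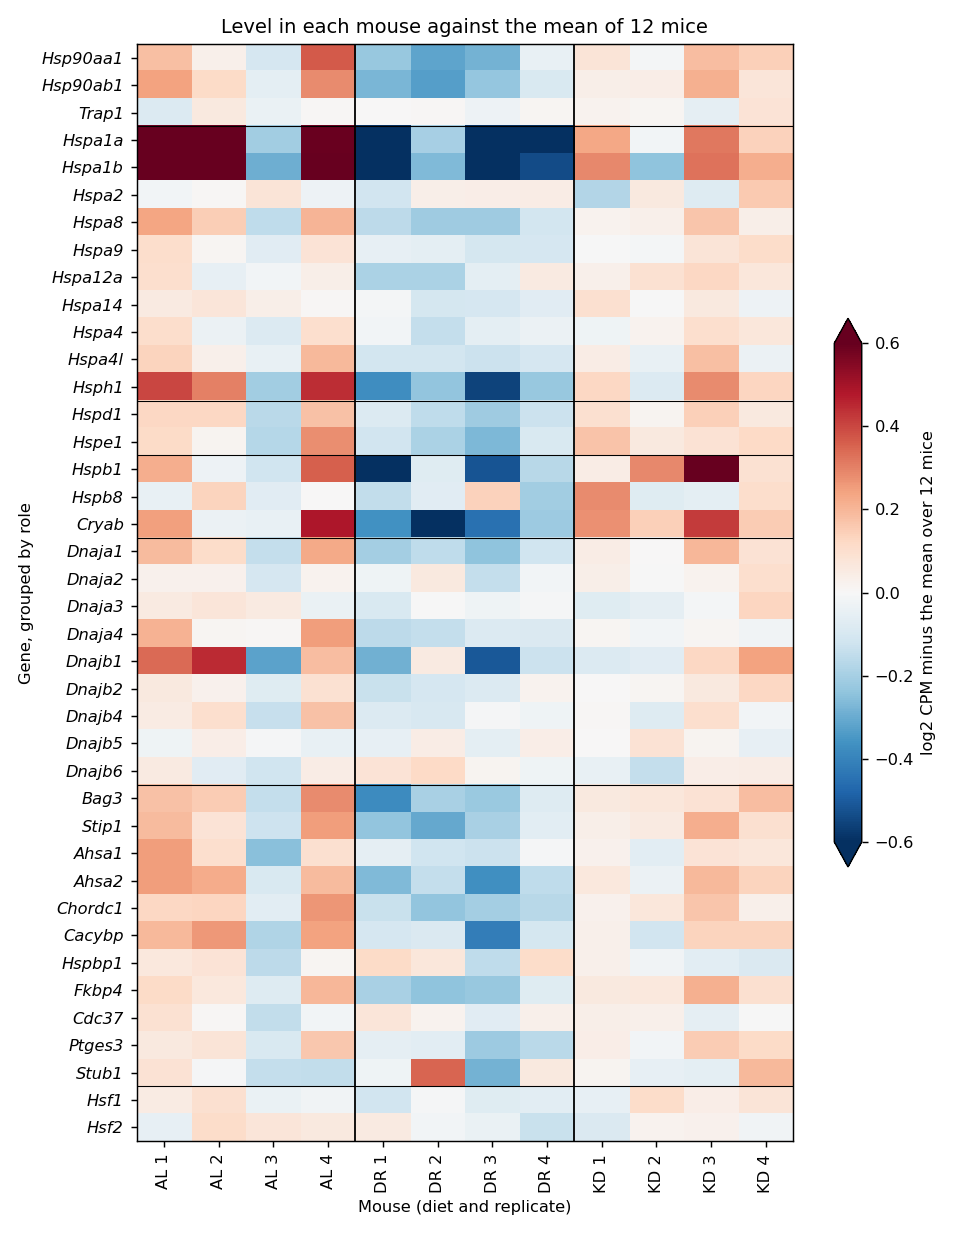
Log2 CPM of the 40 chaperone genes (rows, by role) in the 12 mice (columns, by diet), each minus the gene's mean over the 12 mice, with colours clipped at -0.6 and 0.6. AL mouse 3 is paler or bluer than the other AL mice in most rows, and DR mice are blue in the rows of the called genes.

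Other chaperone genes outside the ER were called at near the share of all genes. For DR against AL this was 2.56%, where all genes gave 3.06%, and for DR against KD 3.9%, where all genes gave 4.94%. From lists of 82 further genes (other HSP and HSF genes, other J-domain proteins, other co-chaperones, the chaperonin CCT with prefoldin, and mitochondrial protein quality control), 78 were tested for DR against AL. Of these, 0 were called lower and 2 higher, against 1.74% and 1.32% of all genes, so the 0 does not set them apart. At an unadjusted p under 0.05, 2 and 11 passed in those directions, against 18% of all genes in either direction. The Wald test of DESeq2 and the exact test of edgeR also called 0 lower, and each called 3 higher. With 1 mouse left out the number called higher was 0 to 2, and 0 without DR mouse 3. Of 77 tested for DR against KD, 0 were called lower and 3 higher, against 2.43% and 2.51% of all genes, with 8 and 10 at an unadjusted p under 0.05, against 18.7% of all genes in either direction, and DESeq2 and the exact test again called 0 lower, with 5 and 3 higher. The medians were 0.03 and 0.00. In edgeR's quasi-likelihood test none of the 14 CCT and prefoldin genes, which fold actin and tubulin, and none of the 11 mitochondrial quality control genes was called in any comparison, and against AL 4 and 3 of them passed at an unadjusted p under 0.05. The higher ones were Fkbp5, Ttc4 and, against KD alone, Dnajc28.

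Fkbp5 (FKBP51), the glucocorticoid-induced relative of Fkbp4 in HSP90 complexes, was at 20.6, 24.5, 24.4 and 14.5 CPM in AL mice 1 to 4, 31.2, 31.4, 43.2 and 28.9 in the DR mice and 14.4, 13.4, 10.7 and 9.86 in the KD mice. No diet overlapped another: all KD mice were below all AL mice, KD mouse 1 only just below AL mouse 4, and all DR mice above them. edgeR's test gave 0.68 (standard error 0.15, adjusted p = 0.0218) against AL and 1.48 (standard error 0.13, adjusted p = 1.98e-05) against KD, and for KD against AL -0.80 with an adjusted p of 0.224. Fkbp5 was thus higher on DR where Fkbp4 was lower. Ttc4, an HSP90 co-chaperone with a TPR domain, was at 60.4, 59.7, 62.4 and 59.7 CPM in AL mice 1 to 4, 73.4, 69.9, 73.4 and 66.8 in the DR mice and 60.1, 59.8, 57.3 and 59.5 in the KD mice. All DR mice were above all others, with 0.23 (standard error 0.05, adjusted p = 0.0155) against AL and 0.26 (standard error 0.04, adjusted p = 0.00309) against KD in edgeR's test. The J-domain gene Dnajc28 was at 13.2, 14.2, 15.5 and 14.3 CPM in AL mice 1 to 4, 15.6, 15.3, 17 and 15.8 in the DR mice and 12.8, 13.8, 13.4 and 13.7 in the KD mice, and against KD edgeR's test gave 0.25 (standard error 0.07, adjusted p = 0.038). The cold-inducible RNA-binding protein Cirbp, whose mRNA is known to rise under mild cooling, was at 61.2, 70.0, 83.0 and 61.3 CPM in AL mice 1 to 4, 96.1, 109.7, 107 and 98.0 in the DR mice and 79.3, 80.8, 65.9 and 73.8 in the KD mice. Every DR mouse was above every AL and KD mouse. edgeR's test gave 0.57 (standard error 0.08, adjusted p = 0.00198) against AL and 0.45 (standard error 0.06, adjusted p = 0.000578) against KD. Its relative Rbm3 was not called, at 0.07 against AL and 0.12 against KD. Body temperature at dissection was not analysed here.

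Markers of the cells of the cerebellar cortex were present, and some were called lower and some higher on DR. The summed CPM of 8 Purkinje markers was 7229 to 8342 on DR, 8485 to 9080 on AL and 8418 to 8665 on KD. Itpr1, with a mean of 4394 CPM on AL, made up the largest part of that sum. 1 of the 8, Car8, was called lower on DR. Against AL, 6 of the 8 log2 fold changes were negative and 2 positive. Pcp2 (-0.04), Ppp1r17 (-0.07), Pvalb (0.07) and Skor2 (0.05) lay nearest 0. The summed CPM of 7 Bergmann glia and astrocyte markers was 1698 to 1769 on DR, 1909 to 2045 on AL and 1871 to 1937 on KD. Slc1a3, with a mean of 1324 CPM on AL, made up the largest part of it. Hopx and Aqp4 were called lower on DR. All 7 log2 fold changes against AL were negative, from -0.52 to -0.02. The summed granule markers overlapped, at 5641 to 5764 on DR, 5436 to 5912 on AL and 5545 to 5807 CPM on KD. Against KD 2 of the 7 were called, Fat2 lower (-0.20) and Cbln3 higher (0.21) on DR. Of 6 markers of interneurons and Golgi cells 1, Lgi2, was called higher on DR, at 0.37 against AL and 0.28 against KD. Of 4 oligodendrocyte precursor markers 1, Gpr17, was called lower on DR, at -0.53 against AL and -0.48 against KD. No marker of microglia, endothelium or meningeal fibroblasts was called. Of 3 choroid plexus markers tested 1 was called lower on DR against KD, at -2.16, and none against AL. Their summed level was 16.1 CPM in KD mouse 1 and 7.8 to 11.3 CPM in the other KD mice. Erythroid markers ranged from 176 to 494 on DR, 275 to 423 on AL and 238 to 269.9 CPM on KD with no gene called. No marker was at 0 in a library except Folr1, 1 of the 4 for choroid plexus, and their part in the falls of the chaperone genes was not tested.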

How the data were processed

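RNA from the cerebellar cortex of 12 mice was sequenced from unstranded TruSeq poly(A) libraries. According to the submitters' processing notes, the authors used Trimmomatic 0.39, STAR 2.7.0f and featureCounts of Subread 1.6.4 with GRCm38.p6, and edgeR 3.32.1. The deposited table holds counts of reads per gene, not normalized, and the treatment of reads with several matches is not given in the sources used here. Totals were 31712084 to 40798644 per library, and diets were taken from the labels. Symbols came from GENCODE vM21 and matched for 54723 of 54752 genes.

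From the counts, 2 diets at a time (8 libraries) were fitted with edgeR 4.0.16 in R 4.3.3 (filterByExpr with a minimum count of 10 and total of 15, TMM, quasi-likelihood test, Benjamini-Hochberg adjustment over all genes, threshold 0.05). The procedure was tested on simulated data, with counts drawn separately for each gene. That test does not cover shifts shared by many genes of 1 mouse. CPM used TMM-scaled library sizes over all 12 libraries, and RPKM divided them by the deposited exon length. Alternatives were library-size scaling, DESeq2 size factors, DESeq2 1.42.0, edgeR's exact test, no filter, a mean over 10 CPM, 1 fit of all 12 libraries, Hspa1a and Hspa1b summed, and leaving out each mouse. P-values set a difference between 2 diets against the spread between these mice, estimated with the help of all genes tested. Exonic overlaps and shared 150-base windows came from GENCODE vM21, and promoters from RefSeq (GRCm38.p6).

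The members and lists were chosen with earlier results of these data known. Values in every mouse are given for members with an adjusted p under 0.05 in a comparison, for both heat shock factors and for the pairs Hspd1 and Hspe1, Hsp90aa1 and Hsp90ab1, and Hspa1a and Hspa1b, and genes of the other lists were named where called, at most 3 a list. The oligodendrocyte marker list is not reported here.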

Additional observations from a re-analysis of the deposited data

Results flagged for a closer look

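In 8 of 120 groups (40 genes on 3 diets) 1 mouse lay farther from the other 3 than Dixon's test at the 95% level allows, where chance gives about 1 group in 20. AL mouse 3 was the mouse in 4 of them. It had 25 CPM of Hspa1b against 48.4 to 52.5 CPM in the other AL mice, 147 CPM of Hspd1 against 179 to 185 CPM, 143 CPM of Dnaja2 against 156 CPM in each of the others, and 30.3 CPM of Cacybp, an adaptor that binds calcyclin and a ubiquitin ligase, against 39.3 to 41.1 CPM. On DR, mouse 3 had 25.8 CPM of Cacybp against 31.9 to 32.3 CPM and 90.9 CPM of Trap1 against 93.0 to 93.4 CPM, and mouse 1 had 13.6 CPM of Hspa2 against 15 to 15.1 CPM. On KD, mouse 3 had 2337 CPM of Hspa8 against 2113 to 2132 CPM.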

How the results depend on the processing

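No paired analysis was possible because the labels carry no replicate numbers. For DR against AL, the 13 calls became 20 with no filter on low counts (these include the same 13) and ranged from 6 to 21 with 1 mouse left out, 21 without AL mouse 3, 6 without AL mouse 1, 2 or 4 or DR mouse 1 or 3, 7 without DR mouse 2 and 11 without DR mouse 4; the other settings gave 11 to 17. The cause was not tested. For KD against AL, 2 genes, Hspa1a and Hspa1b, were called with no filter and 0 to 1 with 1 mouse left out, and the median then ranged from -0.043 to 0.014. For DR against KD, calls ranged from 15 to 18 with 1 mouse left out and from 16 to 21 otherwise. Shares of all genes called are not set beside these counts, so changes particular to the members are not shown. The medians of both comparisons of DR kept their sign under every setting. With 1 mouse left out, log2 fold changes for KD against AL crossed 0 for Hsp90aa1 (-0.094 to 0.062), Dnaja1 (-0.088 to 0.028), Bag3 (-0.10 to 0.030), Stip1 (-0.071 to 0.047), Chordc1 (-0.096 to 0.0094), Fkbp4 (-0.015 to 0.075), Hspd1 (-0.060 to 0.044), Hspe1 (-0.026 to 0.12) and Ptges3 (-0.020 to 0.060). The log2 fold change of Hsf2, DR against KD, moved from -0.02 to 0.0033 with scaling by library size alone and ranged from -0.048 to 0.016 with 1 mouse left out. For DR against AL, the small values of Trap1, Hspa2, Dnaja2, Dnajb5, Hspbp1, Cdc37 and Stub1 also crossed 0 with 1 mouse left out. Of the remaining values of named genes, 12 newly passed the threshold in a setting and 57 no longer passed it, with the same direction. 4 mice a diet and, for Hspb1, counts as low as 84 limit what could be called. Exact separation of Hspa1a from Hspa1b, and of Ahsa2, Dnaja4 and Stub1 from overlapping genes, was beyond these counts.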
